A study of Homo sapiens with 6 samples.

Results

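The genes described here write, scaffold and read methylation of lysine 9 on histone H3 (H3K9), and all 10 were present in a table of 60675 gene IDs, 1 row each. They were chosen by name: the methyltransferases SETDB1, SUV39H1, SUV39H2, EHMT1 and EHMT2, the SETDB1 cofactor ATF7IP, the corepressor TRIM28, and the heterochromatin protein 1 (HP1) genes CBX1, CBX3 and CBX5. Expression was measured as FPKM, a value scaled by transcript length and library depth, in HCT116 cells, a widely used line from a human colon carcinoma. The 3 libraries named WT stably expressed wild-type PHF5A, and the 3 named K29Q stably expressed PHF5A with glutamine in place of lysine 29. PHF5A is a subunit of the SF3B complex, the part of the spliceosome that binds the branch point, and a glutamine is often taken to mimic an acetylated lysine. No drug, dose or time point is given for either group. Whether endogenous PHF5A was removed, which promoter drove the introduced copy, and whether each group was 1 clone or several cultures is not stated by the labels. The p-values therefore rest on the spread among these libraries alone, and that spread may be technical.

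H3K9 methylation marks silent chromatin. SUV39H1 and SUV39H2 place the trimethyl mark at pericentromeric repeats, SETDB1 places it at retroelements and zinc finger genes where TRIM28 brings it, and EHMT1 with EHMT2 place mono- and dimethylation across euchromatin. HP1 proteins bind the methylated lysine through a chromodomain, and demethylases such as KDM3A, the gene in the series title, remove the lower methylation states. The comparison asks whether genes of the opposing, writing side differed between K29Q and WT cells.

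None of the 10 genes passed the test between K29Q and WT cells. All 10 passed the filter on low values, and 0 of 10 had an adjusted p under 0.05 (limma, Benjamini-Hochberg over 13261 genes), against 0.0528% of all genes tested. At an unadjusted p under 0.05 the count was 1 of 10, CBX3, against 12.5% of all genes. The K29Q and WT values overlapped for all 10, whereas 17.8% of all genes had groups that did not overlap. The estimate was above 0 for 8 genes and below 0 for SUV39H1 and TRIM28, and 51.0% of all genes lay above 0. The median log2 fold change was 0.03 over the 10 genes and 0.0030 over all genes, and the median size without sign was 0.10 and 0.09. Every 95% confidence interval lay within 0.5 of 0 on the log2 scale. In bulk RNA, fewer expressing cells and less RNA per cell cannot be told apart.

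**Figure D1:**
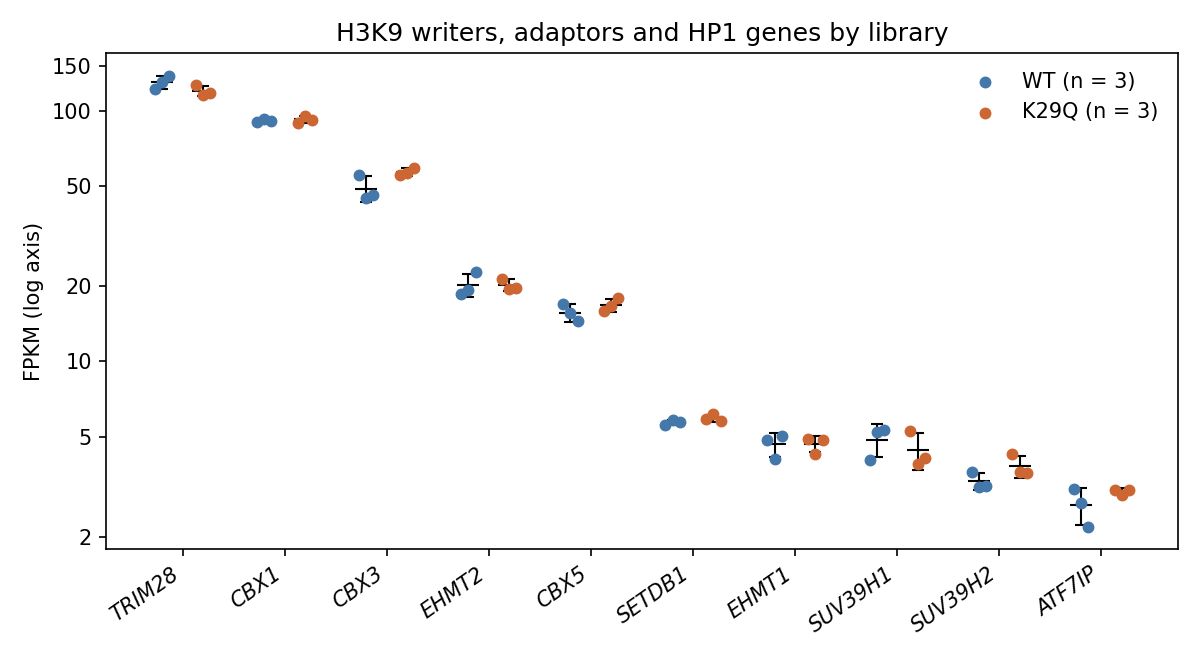
FPKM of the 10 genes on a log axis, ordered by mean level, with 1 point per library (blue WT, orange K29Q) and the group mean ± SD as black bars (n = 3 each). The ranges of the 2 groups overlap for every gene, while levels between genes run from about 2.2 for ATF7IP to 138 for TRIM28.

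A few traits of the libraries bear on these values. The column headers name 2 sequencing runs, read here as flow cells: A held WT 2, K29Q 1 and K29Q 2, and B held WT 1, WT 3 and K29Q 3. The first principal component held 34.1% of the variance, and on it WT 1 lay at −4.72, beside the K29Q libraries (−14.92 to −4.76), while WT 2 and WT 3 lay at 13.22 and 17.99. Expression relative to the 6-library mean followed GC content to different degrees, with a slope per 10% GC of 0.118 in WT 3, 0.030 in WT 2 and −0.069 to 0.018 in the other libraries. Epithelial markers fitted the label in part: EPCAM and KRT8 were high, CDX2 was at 2.92 to 3.54, and CDX1 and VIL1 had at most 0.181 FPKM. Summed FPKM of the 8 epithelial markers was 1247 to 1400 in WT and 1146 to 1200.0 in K29Q, and 0 of the 6 tested ones passed (limma, 2 at an unadjusted p under 0.05, KRT19 and KRT8). Of these 6, 5 had estimates below 0 and 4 had K29Q below WT without overlap. Over all genes 12.5% had an unadjusted p under 0.05 (limma) and 17.8% had groups without overlap. The list's median log2 fold change was −0.12, and −0.09 after GC and length correction, with 2 of 6 then above 0. EPCAM, the exception in sign before correction, had 61.1, 58.1 and 48.2 FPKM in WT and 51.8, 62.0 and 60.4 in K29Q. KRT19 had 699 ± 55.0 FPKM in WT and 601 ± 25.9 in K29Q, KRT8 367 ± 28.3 and 319.9 ± 18.2, KRT18 182 ± 7.57 and 170.1 ± 1.14, and CDH1 16.4 ± 0.079 and 14.8 ± 0.876; whether this has a part in the values of the 10 genes was not tested. The leukocyte and endothelial lists summed to at most 1.09 and 0.373 FPKM, with PTPRC at 0.0027 FPKM or less. Of 5 fibroblast genes DCN and LUM were listed at 0 in all 6 libraries, and COL1A1 had 4.35 to 5.93 FPKM. PHF5A totals were 32.4, 34.4 and 32.7 FPKM in WT 1 to 3 and 41.4, 45.9 and 45.0 in K29Q 1 to 3. Every K29Q library was above every WT library. The log2 difference of PHF5A was 0.40 (SE 0.064, interval 0.25 to 0.55, limma, adjusted p = 0.110). After GC and length correction it was 0.43 (limma, adjusted p = 0.0201). PHF5A RNA level and the residue at position 29 thus differed together, and their parts cannot be told apart. The totals would add any endogenous and introduced copies and do not check which form was expressed.

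Within the writer genes, EHMT2 (G9a) was the most abundant, with about 4 times the level of its partner EHMT1 (GLP). EHMT2 had 18.6, 19.2 and 22.6 FPKM in WT 1 to 3 and 21.4, 19.5 and 19.7 in K29Q 1 to 3. WT 3 was the highest and WT 1 the lowest library, and all K29Q values fell between them. The fitted log2 difference, K29Q minus WT, was 0.0043 (SE 0.087) with a 95% confidence interval of −0.20 to 0.21 (limma, adjusted p = 0.988). EHMT1 had 4.87, 4.09 and 5.06 FPKM in WT and 4.91, 4.30 and 4.86 in K29Q. The lowest value of each group came from flow cell A (WT 2 and K29Q 2), but K29Q 1, also in A, had the highest K29Q value. The group means of 4.68 and 4.69 were nearly equal. Its log2 difference was 0.0056 (SE 0.089, interval −0.21 to 0.22, limma, adjusted p = 0.984). EHMT1 and EHMT2 act as a heteromer. Within flow cell A the log2 differences were 0.08 for EHMT2 and 0.14 for EHMT1, and within B −0.059 and −0.026. WT 2 was the only WT library in A and K29Q 3 the only K29Q library in B. Whether the pair varied together was not tested. The ratio of EHMT2 to EHMT1 was 4.33 ± 0.451 in WT and 4.31 ± 0.243 in the K29Q libraries (SD, n = 3 each).

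SETDB1, the trimethylase of retroelements, was the steadiest of the 5 methyltransferases. It had 5.60, 5.87 and 5.73 FPKM in WT and 5.88, 6.16 and 5.77 in K29Q, a span of 1.10-fold from lowest to highest library. K29Q 1 and K29Q 2 lay above all WT values and K29Q 3 among them. The log2 difference was 0.04 (SE 0.059, interval −0.10 to 0.18, limma, adjusted p = 0.776), 0.020 without K29Q 2 and 0.029 without WT 1. CERS2, a ceramide synthase gene on the opposite strand, has exons that overlap those of SETDB1. This gene (chosen after its values were seen) had 44.7 FPKM in WT 3 and 20.9 to 23.2 in the other libraries, and SETDB1 in WT 3 was inside the range of the rest.

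SUV39H1 and SUV39H2, the pericentromeric pair, had estimates of opposite sign, neither past the threshold. SUV39H1 had 4.04, 5.26 and 5.35 FPKM in WT and 5.28, 3.92 and 4.13 in K29Q. Each group held both high and low values: WT 2, WT 3 and K29Q 1 were high, and WT 1, K29Q 2 and K29Q 3 were low. Its log2 difference was −0.11 (SE 0.129, interval −0.42 to 0.19, limma, adjusted p = 0.726), the widest interval of the 10. Without 1 library it ranged from −0.22 (without WT 1 or without K29Q 1) to −0.043 (without K29Q 2). SUV39H2 had 3.64, 3.17 and 3.19 FPKM in WT and 4.27, 3.64 and 3.59 in K29Q. K29Q 1 stood above the other libraries, and WT 1 was level with K29Q 2. A log2 difference of 0.16 was fitted (SE 0.084, interval −0.04 to 0.35, limma, adjusted p = 0.473); flow cell A alone gave 0.25 and flow cell B alone 0.06, and without K29Q 1 it was 0.092. SUV39H1 was above SUV39H2 in 6 of 6 libraries, by 1.11-, 1.66- and 1.68-fold in WT and 1.24-, 1.08- and 1.15-fold in K29Q. WT 1 had a ratio in the K29Q range, so the groups overlapped. The exons of SUV39H2 overlap those of DCLRE1C on the opposite strand, which had 1.18 to 1.43 FPKM. Without the strand of the counting, reads shared by SUV39H2 and DCLRE1C cannot be assigned.

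Neither cofactor passed the test. ATF7IP, which stabilises SETDB1 in the nucleus, was the least abundant of the 10, with 3.09, 2.74 and 2.20 FPKM in WT and 3.09, 2.93 and 3.08 in K29Q. WT 3 was the low library and WT 1 the highest of all 6. Its log2 difference was 0.14 (SE 0.099, interval −0.09 to 0.37, limma, adjusted p = 0.572). It was 0.043 without WT 3 and 0.22 without WT 1 (limma, adjusted p = 0.236, unadjusted p = 0.0467). TRIM28 (KAP1), the scaffold that KRAB zinc finger proteins use to recruit SETDB1 and HP1, was the most abundant, above 98.2% of the genes tested. It had 122, 129.7 and 138 FPKM in WT and 126, 116 and 117 in K29Q. K29Q 2 and K29Q 3 were below all WT values and K29Q 1 was above WT 1. The fitted log2 difference was −0.12 (SE 0.069, interval −0.28 to 0.05, limma, adjusted p = 0.515); flow cell A alone gave −0.10 and flow cell B alone −0.14, and without WT 3 it was −0.072. Of 6 ratios formed between the 10 genes, TRIM28 over SETDB1 was 1 of 2 without overlap, at 22.7 ± 1.21 in WT and 20.2 ± 1.36 in the K29Q libraries (SD, n = 3 each). The other was CBX3 over CBX5. Of all single genes 17.8% had groups that did not overlap. No such share was formed for ratios, and the 6 pairs were chosen, so the count of 2 was not tested.

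The HP1 genes are the readers. Their promoter windows are shown because 2 of the 3 start close to an abundant hnRNP gene on the other strand, whose reads are counted nearby. Each line gives the RefSeq window (GRCh38.p14) of 250 bases before to 50 after the start, 5′ to 3′ on the gene's strand. Capitals mark matches on either strand to GGGCGG (GC box), TTTGGCG (E2F core), ACGTG (hypoxia response core) or CCAAT.
CBX1, chr17:48101137-48101436, minus strand: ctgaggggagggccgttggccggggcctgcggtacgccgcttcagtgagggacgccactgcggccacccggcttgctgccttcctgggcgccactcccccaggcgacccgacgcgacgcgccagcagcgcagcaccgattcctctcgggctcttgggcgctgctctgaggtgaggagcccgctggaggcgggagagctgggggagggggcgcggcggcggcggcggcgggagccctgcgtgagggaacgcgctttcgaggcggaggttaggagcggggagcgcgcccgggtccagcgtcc
CBX3, chr7:26201193-26201492, plus strand: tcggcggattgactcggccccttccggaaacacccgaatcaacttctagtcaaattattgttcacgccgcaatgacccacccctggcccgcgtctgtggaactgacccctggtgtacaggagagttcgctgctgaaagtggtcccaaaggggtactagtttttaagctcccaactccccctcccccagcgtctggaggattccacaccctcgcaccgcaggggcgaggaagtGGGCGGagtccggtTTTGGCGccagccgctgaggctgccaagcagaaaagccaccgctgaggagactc
CBX5, chr12:54280073-54280372, minus strand: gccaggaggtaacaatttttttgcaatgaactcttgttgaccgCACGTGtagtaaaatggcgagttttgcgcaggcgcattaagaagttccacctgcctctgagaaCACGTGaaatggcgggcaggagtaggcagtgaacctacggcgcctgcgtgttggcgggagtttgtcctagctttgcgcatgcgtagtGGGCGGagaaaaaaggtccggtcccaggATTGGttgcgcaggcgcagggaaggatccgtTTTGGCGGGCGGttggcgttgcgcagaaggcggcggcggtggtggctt
The CBX1 window held none of these letters, had 38 CpG dinucleotides against a median of 14 over 35093 windows, and was 75.7% GC. CBX3 held 1 GC box and 1 E2F core. CBX5 held 2 GC boxes, 1 E2F core that overlaps one of them, 1 CCAAT on the reverse strand, and 4 hypoxia cores, since each CACGTG counts on both strands. Of all windows 44.9% held the GC box, 1.9% the E2F core, 21.4% the hypoxia core and 34.6% CCAAT. Over the 9 genes with a window (the one nearest the annotated start), 6 held the GC box, 2 the E2F core, 3 the hypoxia core (CBX5, EHMT2 and SETDB1) and 2 CCAAT. A match is a string of letters and was not tested for binding.

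CBX1 (HP1β) was the steadiest of the 10 genes across libraries. It had 90.4, 92.3 and 91.2 FPKM in WT and 89.4, 95.3 and 91.7 in K29Q, a span of 1.07-fold. K29Q 1 was the lowest and K29Q 2 the highest library, with all WT values between them. The fitted log2 difference was 0.01 (SE 0.054, interval −0.11 to 0.14, limma, adjusted p = 0.937).

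CBX3 (HP1γ), the form most associated with gene bodies, had the largest estimate of the 10. It had 55.4, 44.8 and 46.3 FPKM in WT and 55.1, 56.1 and 59.0 in K29Q. WT 2 and WT 3 were low, and WT 1 lay just above K29Q 1. The ratio of means was 1.16, and the log2 difference was 0.22 (SE 0.090, interval 0.01 to 0.43), which did not pass the threshold (limma, adjusted p = 0.394, unadjusted p = 0.0448). Flow cell A alone gave 0.31 and flow cell B alone 0.22, and removal of the GC and length trends left 0.13. Without WT 1 the log2 fold change was 0.31, and the call was still absent (limma, adjusted p = 0.0753). Over all genes, 83.7% had a difference of this size or less.

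The exons of CBX3 overlap those of HNRNPA2B1 on the other strand, whose start lies 367 bases away. HNRNPA2B1, a splicing regulator, had 101.7, 89.2 and 100.1 FPKM in WT and 106, 105 and 104 in K29Q, which is a log2 difference of 0.11 (SE 0.067; limma, adjusted p = 0.509). WT 2 was its lowest library, as for CBX3, but WT 3 was near WT 1. Without the strand of the counting, reads in the shared stretch cannot be assigned to one of the pair. CBX1 and CBX3 also have processed pseudogenes, and those named after a member of the 10 had at most 0.395 FPKM.

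CBX5 (HP1α), the form most tied to pericentromeric heterochromatin, was the least abundant HP1 gene. It had 17.0, 15.6 and 14.4 FPKM in WT and 15.9, 16.6 and 17.9 in K29Q. K29Q 3 was highest and WT 3 lowest, and WT 1 was second. Its log2 difference was 0.09 (SE 0.080, interval −0.09 to 0.28, limma, adjusted p = 0.635), and −0.04 after GC and length correction. Without WT 3 it was 0.041, without K29Q 3 0.050 and without WT 1 0.15. HNRNPA1, whose start lies 60 bases away on the other strand, had 138, 143 and 135 FPKM in WT and 129, 151 and 143 in K29Q (log2 fold change 0.02, SE 0.072, limma, adjusted p = 0.920).

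CBX1 was the main HP1 transcript in every library. Of the summed HP1 FPKM, CBX1 made up 58.7 ± 2.73% in the WT libraries and 55.6 ± 1.19% in the K29Q ones (SD, n = 3 each). CBX3 made up 31.3 ± 2.45% and 34.3 ± 0.806%, and CBX5 10.0 ± 0.481% and 10.1 ± 0.425%. WT 1, with 55.5% CBX1 and 34.0% CBX3, had the proportions of the K29Q libraries. CBX3 over CBX5 was 3.26, 2.88 and 3.20 in WT and 3.47, 3.39 and 3.30 in K29Q, without overlap but with WT 1 close to K29Q 3.

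**Figure D2:**
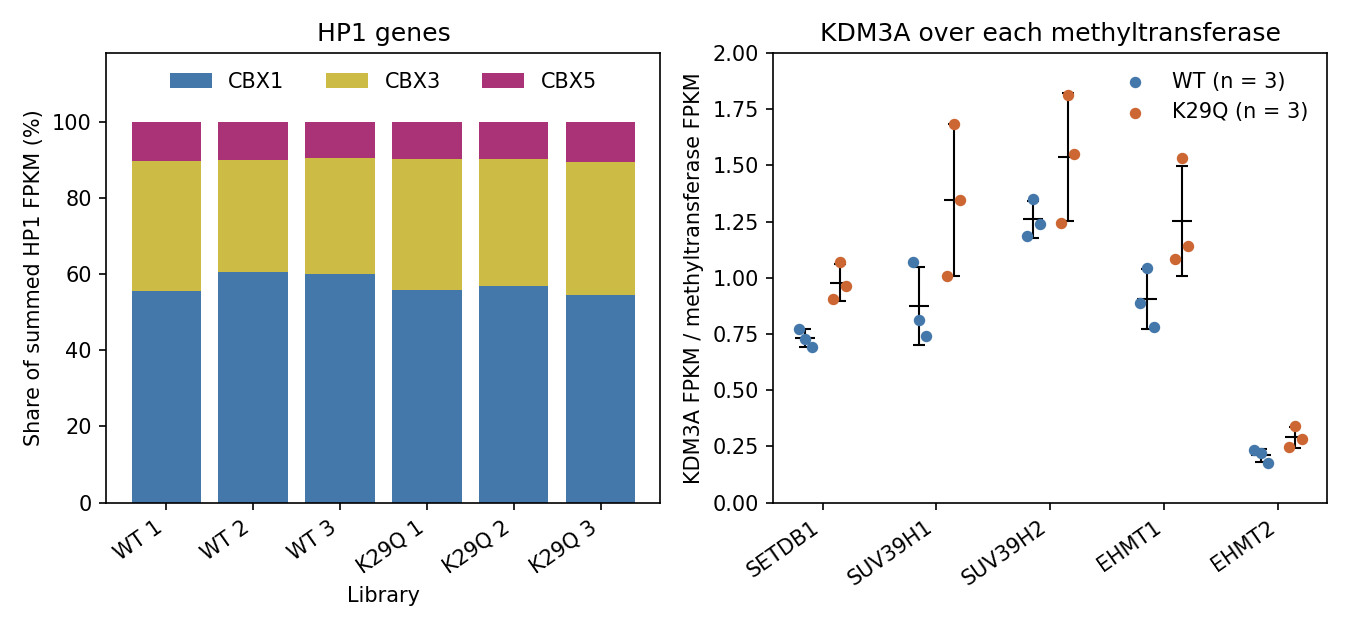
Left, the share of summed HP1 FPKM from CBX1, CBX3 and CBX5 in each library, in percent. Right, KDM3A FPKM divided by the FPKM of each methyltransferase, 1 point per library with the group mean ± SD (n = 3 each). CBX1 gives 54.4% to 60.4% in every library. The KDM3A ratios separate the groups for SETDB1, EHMT1 and EHMT2. KDM3A alone also separates the groups, so these ratios carry its difference, and they were not tested.

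Ordered by level, TRIM28 (mean of 6 libraries 125 FPKM) was followed by CBX1 (91.7), CBX3 (52.8), EHMT2 (20.2), CBX5 (16.2), SETDB1 (5.83), EHMT1 (4.68), SUV39H1 (4.66), SUV39H2 (3.58) and ATF7IP (2.85). Neighbours in this order did not overlap across libraries, except EHMT1 with SUV39H1 and SUV39H1 with SUV39H2. EHMT1 was above SUV39H1 in 3 of 6 libraries. EHMT2 alone made up 51.9 ± 1.76% of the summed FPKM of the 5 methyltransferases in WT and 51.6 ± 0.349% in K29Q. That sum was 38.8 ± 2.78 FPKM in the WT libraries and 39.1 ± 2.32 in the K29Q ones (SD, n = 3 each).

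KDM3A is set beside these differences, since it removes the mark that EHMT1 and EHMT2 place. Its FPKM was 4.32, 4.28 and 3.96 in WT and 5.32, 6.59 and 5.55 in K29Q, every K29Q library above every WT library. Over all genes 17.8% had groups without overlap. The log2 difference of KDM3A was 0.39 (SE 0.086, interval 0.19 to 0.60), which did not pass the threshold either (limma, adjusted p = 0.235). It was 0.28 after GC and length correction and 0.24 with a flow cell term added to that. Without correction, for 9 of the 10 genes the upper end of the interval was below 0.39, and the exception was CBX3 (0.43). The KDM3A interval began at 0.19 and overlapped those of SUV39H2 (up to 0.35), ATF7IP (0.37) and CBX5 (0.28), among others. KDM3A was not tested against any of the 10 genes. KDM3A over SETDB1 was 0.772, 0.729 and 0.691 in WT and 0.904, 1.07 and 0.962 in K29Q. KDM3A over the sum of the 5 methyltransferases was 0.117, 0.114 and 0.0944 in WT and 0.127, 0.176 and 0.146 in K29Q. Of the ratios to single methyltransferases, those to SETDB1, EHMT1 and EHMT2 did not overlap between groups, and those to SUV39H1 and SUV39H2 did. These ratios carry the KDM3A difference and were not tested.

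**Figure D3:**
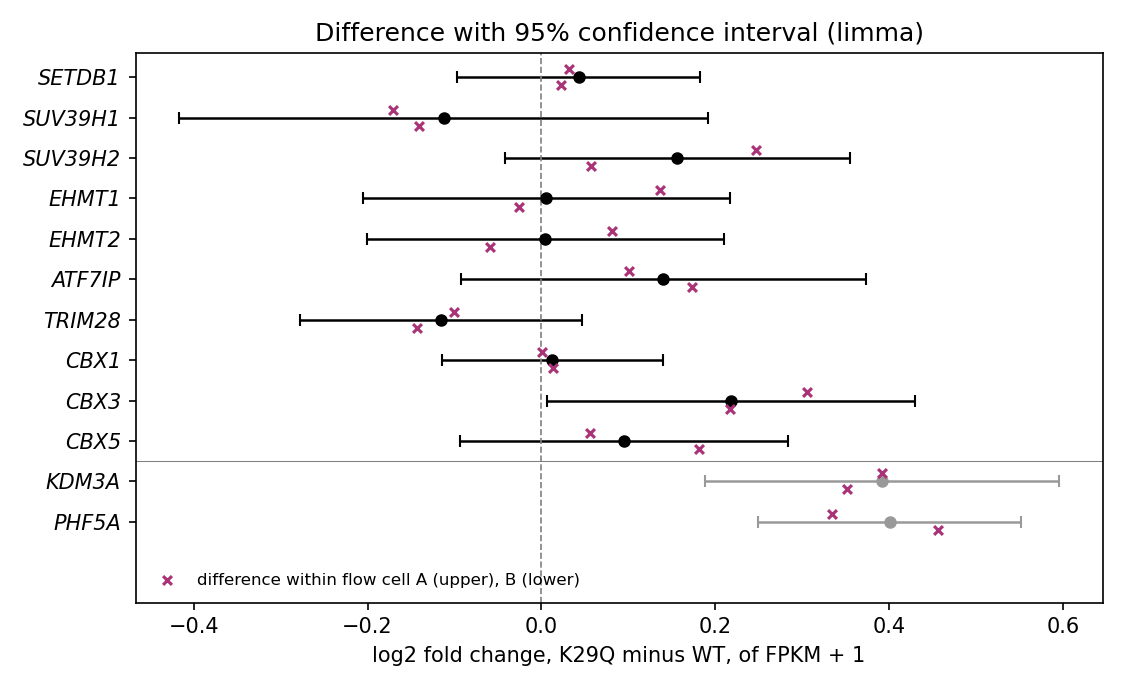
Log2 fold change (K29Q minus WT, log2 of FPKM + 1) with its 95% confidence interval from limma for the 10 genes (black) and for KDM3A and PHF5A (grey), with crosses for the differences within flow cells A and B. Only the CBX3 interval among the 10 leaves out 0, at 0.01 to 0.43. The KDM3A estimate of 0.39 lies above the intervals of the other 9, but the KDM3A interval begins at 0.19 and overlaps several of them.

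The size and sign of the estimates ran along GC content. The 4 genes with a GC content of up to 41.8% (CBX3, ATF7IP, SUV39H2 and CBX5) had the 4 largest positive estimates, 0.09 to 0.22. TRIM28 (63.7% GC) and SUV39H1 (57.6%) had the negative ones, and EHMT2 (60.9%) was at 0.0043. WT 3 was the highest library for EHMT1, EHMT2, SUV39H1 and TRIM28, the 4 genes richest in GC, and was the lowest for ATF7IP and CBX5. Once GC content and length were corrected for, the 10 estimates lay between −0.07 (TRIM28) and 0.13 (CBX3), 6 above 0 and 4 below, with ATF7IP (−0.0049) and CBX5 (−0.04) changing sign. None passed then (0 of 10, limma, lowest adjusted p 0.335, 0 at an unadjusted p under 0.05).

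**Figure D4:**
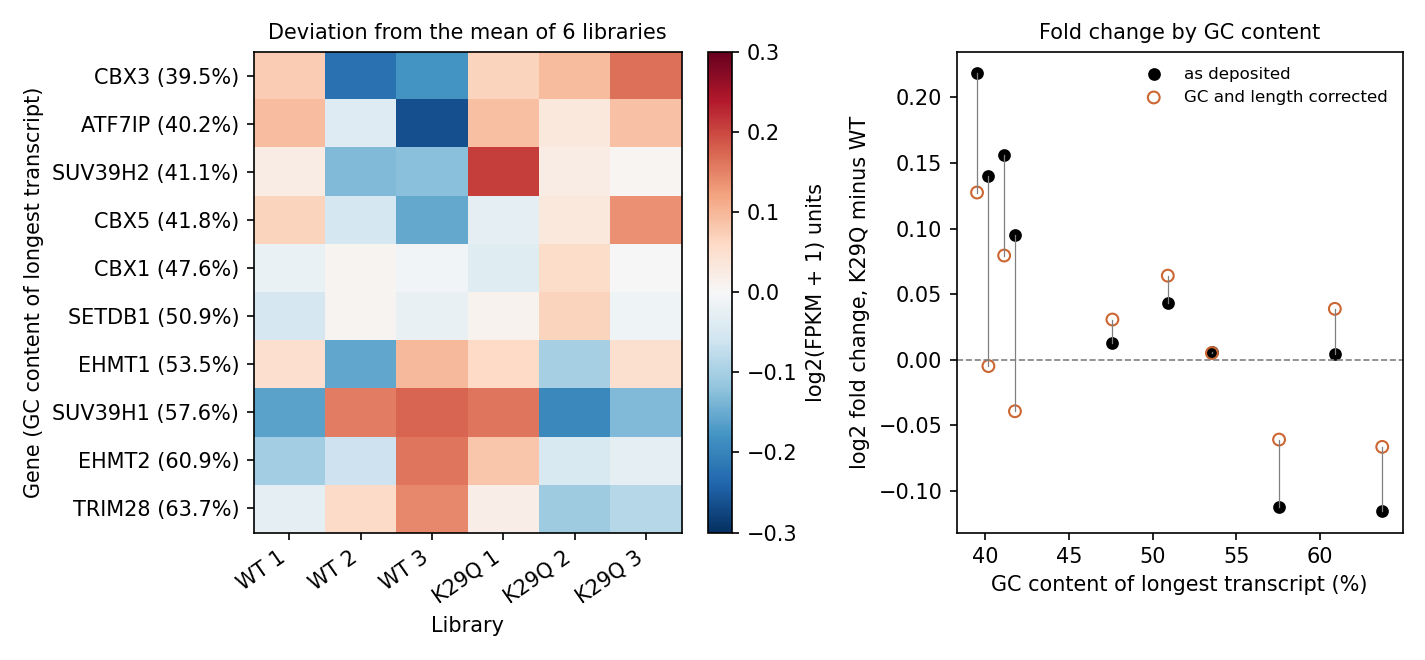
Left, deviation of each gene from its mean over the 6 libraries in log2(FPKM + 1) units, with genes ordered by GC content of the longest transcript. Right, log2 fold change against GC content as deposited (filled) and after GC and length correction (open): WT 3 is low for genes at the top and high for those at the bottom, and the corrected values lie between −0.07 and 0.13.

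Genes linked to SETDB1 or TRIM28 by function or by family were read from a list that includes the HUSH complex, which silences retroelements. All 9 listed genes had estimates above 0, against 51.0% of all genes. Their median log2 fold change was 0.13 against 0.0030 over all genes. The number past the threshold was 0 of 9 (limma, 2 at an unadjusted p under 0.05, against 12.5% of all genes). The HUSH subunit TASOR, listed as FAM208A, had 4.30 ± 0.748 FPKM in WT and 5.54 ± 0.456 in the K29Q libraries (SD, n = 3 each). TRIM33, a relative of TRIM28, had 6.58 ± 0.985 and 8.17 ± 0.618 FPKM. RESF1, listed as KIAA1551, had 5.36 ± 2.14 and 7.40 ± 0.621, and SETDB2 had 0.881 ± 0.157 and 1.05 ± 0.080. The list's median GC content was 40.0%, against 49.7% over all genes, and after GC and length correction 5 of 9 estimates were above 0, with a median of 0.10.

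Partners of EHMT1 and EHMT2 showed 5 of 7 estimates above 0, against 51.0% of all genes. The median was 0.05 and 0 passed the threshold (limma, 1 at an unadjusted p under 0.05, against 12.5% of all genes). That gene was ZNF644, a zinc finger protein that targets the pair, with 3.31 ± 0.645 FPKM in WT and 4.34 ± 0.423 in the K29Q libraries (SD, n = 3 each). WIZ, which joins it in the complex, had 5.53 ± 0.855 and 5.19 ± 0.572, the co-repressor CDYL 5.91 ± 0.524 and 6.57 ± 1.09, and the deacetylase HDAC1 86.5 ± 2.20 and 82.1 ± 1.49. HDAC1 was the only gene of the list without overlap, with K29Q below WT, against 17.8% of all genes without overlap. After GC and length correction 4 of 7 were above 0, with a median of 0.01.

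Proteins bound by HP1 or placed at pericentromeres gave 12 of 19 estimates above 0, against 51.0% of all genes. The median was 0.08 and 0 passed the threshold (limma, 4 at an unadjusted p under 0.05, against 12.5% of all genes). Without overlap, 2 had K29Q above WT and 1 had K29Q below, and 17.8% of all genes had groups without overlap. ATRX, a chromatin remodeller that deposits histone H3.3 at repeats, had 2.62, 1.76 and 1.80 FPKM in WT and 3.17, 3.08 and 3.66 in K29Q, every K29Q library above every WT library. It differed by 0.50 on the log2 scale (SE 0.121, limma, adjusted p = 0.277), and 0.30 after GC and length correction. CENPA, the centromeric histone H3, had 7.06 ± 0.595 and 8.31 ± 0.234 FPKM. The cohesin loader NIPBL had 3.32 ± 0.843 and 4.57 ± 0.510, and the HP1 partner LRIF1 4.56 ± 0.516 and 5.41 ± 0.280. After GC and length correction 8 of 19 were above 0, with a median of −0.01.

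Among 11 H3K9 demethylases 8 estimates were above 0 and the median was 0.08, with 0 past the threshold (limma, 3 at an unadjusted p under 0.05) and 3 with groups that did not overlap. Over all genes those shares were 12.5% and 17.8%, and 51.0% lay above 0. The counts for the demethylases include KDM3A, which the series title names. After GC and length correction 8 of 11 were above 0 and the median was 0.04. The 3 without overlap were KDM3A, JMJD1C with 3.63 ± 0.625 and 5.70 ± 0.670 FPKM, and KDM4C, which removes trimethylation, with 1.64 ± 0.088 and 2.11 ± 0.041 (SD, n = 3 each). KDM7A had 1.32 ± 0.402 and 1.63 ± 0.083. The demethylases and the 10 genes were not tested against each other as groups.

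Genes of other silencing systems did not pass the test either. DNA methylation genes had 9 of 12 estimates above 0 and a median of 0.04, with 0 past the threshold (limma, 1 at an unadjusted p under 0.05). Over all genes 51.0% lay above 0 and 12.5% had an unadjusted p under 0.05 (limma). For 3 of the 12 every K29Q library was above every WT library, and 17.8% of all genes had groups without overlap. After GC and length correction 9 of 12 were above 0, with a median of 0.02. The oxidase TET2 had 0.927 ± 0.192 and 1.33 ± 0.144 FPKM, and UHRF1, which reads methylated H3K9 and brings DNMT1 to replicating DNA, 54.5 ± 3.68 and 50.2 ± 1.45. MBD1 had 6.90 ± 0.791 and 6.16 ± 0.520, and the methyltransferase DNMT3B 7.02 ± 0.543 and 7.56 ± 0.565. Polycomb genes had 9 of 15 above 0, a median of 0.02 and 0 past the threshold (limma, 0 at an unadjusted p under 0.05). K29Q was above WT without overlap for 2 of the 15. After GC and length correction 8 of 15 were above 0, with a median of 0.01. Of the Polycomb genes SUZ12 had 8.13 ± 1.47 and 10.0 ± 0.812 FPKM, EZH1 2.66 ± 0.093 and 2.92 ± 0.092, BMI1 12.2 ± 1.75 and 13.7 ± 0.544, and RNF2 6.29 ± 0.865 and 7.001 ± 0.373.

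CBX5 and UHRF1 are known to be higher in dividing than in resting cells, so proliferation genes were set beside them. Of 20 such genes 8 were above 0 and 12 below, while 51.0% of all genes lay above 0. The median was −0.04 and 0 passed the threshold. The fit gave 6 an unadjusted p under 0.05 (limma, against 12.5% of all genes). After GC and length correction 7 of 20 were above 0, with a median of −0.02. ASPM had 6.31 ± 1.56 and 10.3 ± 1.56 FPKM, TOP2A 28.0 ± 6.33 and 39.0 ± 3.72, and MKI67 11.8 ± 1.90 and 15.1 ± 1.68, while the licensing factor CDT1 had 36.5 ± 3.02 and 30.2 ± 3.19 (SD, n = 3 each). The correction took the log2 differences of ASPM from 0.64 to 0.45, TOP2A from 0.48 to 0.34, MKI67 from 0.33 to 0.28 and CDT1 from −0.27 to −0.22. The list's mean log2(FPKM + 1) was 5.034 to 5.093 in WT and 5.094 to 5.122 in K29Q. WT 1 and K29Q 1 were thus nearly equal, and this mean was higher in K29Q while the median estimate was below 0. The part of proliferation in the values of the 10 genes was not tested.

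Germline genes, a group that H3K9 methylation and DNA methylation keep silent in somatic cells, were mostly near 0. Of 17 listed genes 1 passed the filter, MAGEA3, and 4 were listed at 0 in all libraries. MAGEA3 had 33.6, 35.6 and 63.3 FPKM in WT and 30.2, 33.0 and 30.8 in K29Q, with WT 3 far above the rest (log2 fold change −0.42, SE 0.223, limma, adjusted p = 0.467). Its near-identical copy MAGEA6 had 0.596 to 1.97 FPKM, and reads may be divided between the copies. The highest untested value of the list was that of MAGEA6.

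Other starts shared with the 10 genes gave low values. The non-coding AC069544.1, 134 bases from the SUV39H2 start on the other strand, had 1.10, 1.39 and 1.45 FPKM in WT and 1.10, 0.843 and 0.894 in K29Q (log2 fold change −0.25, SE 0.093, limma, adjusted p = 0.389). ARRDC1-AS1, 57 bases from the EHMT1 start, had 2.73 ± 0.241 and 2.44 ± 0.413 FPKM (SD, n = 3 each).

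By position on GRCh38 (GENCODE 29), SETDB1 (ENSG00000143379) lies on chromosome 1 from 150926263 to 150964744, SUV39H1 (ENSG00000101945) on X from 48695554 to 48709012, and SUV39H2 (ENSG00000152455) on 10 from 14878820 to 14904315. EHMT1 (ENSG00000181090) lies on chromosome 9 from 137618963 to 137870016, EHMT2 (ENSG00000204371) on 6 from 31879759 to 31897687, TRIM28 (ENSG00000130726) on 19 from 58544091 to 58550722, and ATF7IP (ENSG00000171681) on 12 from 14365632 to 14502935. CBX1 (ENSG00000108468) lies on chromosome 17 from 48070052 to 48101521, CBX3 (ENSG00000122565) on 7 from 26201162 to 26213356, and CBX5 (ENSG00000094916) on 12 from 54230940 to 54280133. EHMT2, CBX1 and CBX5 are on the minus strand and the others on the plus strand, and all 10 code for protein. Gene totals hold no information on which transcripts were made.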

How the data were processed

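Total RNA of 6 HCT116 libraries was sequenced as paired reads on a HiSeq instrument, per the labels. The submitters' processing notes name HISAT2 2.1.0, StringTie and the build GRCh38. For the StringTie version and the annotation release: not given in the sources used here. Deposited values were FPKM, fragments scaled by transcript length and mapped depth by the authors, 1 column per library, per the file headers. No strand setting is named, so reads of overlapping opposite genes cannot be told apart.

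FPKM values are not counts, and depth was estimated. Values of single-exon genes moved in steps that put the depth at 33600000 to 40000000 fragments if 1 step is 1 fragment. Between 28.6% and 32.0% of low values lay within 0.05 of a whole step, so counts were not recovered. The filter kept 13261 of 60675 genes, those reaching an FPKM of 1 in 3 or more libraries, and log2(FPKM + 1) was fitted with limma 3.58.1 in R 4.3.3 with an intensity trend and the group as the only term. Adjusted p-values are Benjamini-Hochberg over the 13261 genes, with a threshold of 0.05. Differences, their SE and 95% confidence intervals are in log2(FPKM + 1) units, so changes of low genes are understated. The code was tested on simulated data.

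Positions, GC content and length are from GENCODE 29 on GRCh38, with the longest transcript of each gene. For the GC and length correction each library's spline trend (4 degrees of freedom each) was subtracted over 13108 genes. Promoter windows are from RefSeq. The 10 genes and the related lists were chosen with earlier results of these data known. Named genes are the 10 genes, KDM3A, PHF5A, tested divergent neighbours, and up to 4 genes of each list with the smallest p. 16 alternative fits were run. 0 columns belonged to other series.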

Additional observations from a re-analysis of the deposited data

How the results depend on the processing

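In the 16 alternative fits none of the 10 genes passed the threshold where tested (limma, 0 to 2 at an unadjusted p under 0.05). The fit limited to a mean FPKM of at least 5 tested 6 of the 10 genes and the others all 10. Over all genes, 7 passed as reported, 13 with quantile normalization, 2 with no filter on low values, 3 with the replicate block, 4 with a flow cell term, 83 with GC and length correction, 1 with that correction and the replicate block, and from 5 to 20 without 1 library (20 without WT 1, 12 without K29Q 1). Estimates near 0 changed sign. EHMT1 was at −0.027 with quantile normalization. With GC and length correction CBX5 was at −0.039 and ATF7IP at −0.0049, with a flow cell term added at −0.042 and −0.036, and with the replicate block added at −0.039 and −0.0049. Without 1 library the range was −0.071 to 0.056 for EHMT1, −0.047 to 0.086 for EHMT2 and −0.012 to 0.034 for CBX1. The cause was not tested. CBX3, SETDB1, SUV39H1, SUV39H2 and TRIM28 kept their sign in all fits that tested them, though not their size. Deviations from the group means correlated at −0.14, 0.18 and −0.17 for the same replicate number, and at −0.115 to 0.247 for different numbers. These values do not show a pairing by number. They cannot exclude one either, since the deviations of 3 libraries must sum to 0. Without depth per gene, low genes such as ATF7IP carry counting error that could not be given.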
